A study of Rattus norvegicus with 115 samples.

Results

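The count table of sorted rat mammary tumour cells holds 28 genes for collagen chains among its 17455 rows. They were taken by symbol, as every row whose name is Col, a type number, the letter a and a chain number, so no expression value entered the choice. Of the 28 chains, 10 belong to fibrillar collagens (Col1a1, Col1a2, Col2a1, Col3a1, Col5a1, Col5a2, Col5a3, Col11a1, Col11a2 and Col27a1) and 5 to collagens of the basement membrane zone (Col4a1, Col4a3, Col4a4, Col15a1 and Col18a1). The other 13 were described by type: beaded filament chains (Col6a2 and Col6a4), fibril-associated chains (Col9a1, Col9a2, Col9a3, Col14a1 and Col16a1), transmembrane chains (Col13a1, Col17a1 and Col23a1), the short-chain network chain Col8a1, the anchoring fibril chain Col7a1, and Col26a1. Col4a2, Col6a1, Col6a3 and Col12a1 were not analysed here.

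Collagens are secreted proteins in which 3 chains wind into a triple helix. Type I and type III collagen form the tension-bearing fibrils of connective tissue and are made mainly by fibroblasts, type IV collagen forms the sheet-like network of basement membranes under epithelium and around vessels, and transmembrane chains such as that of type XVII collagen sit in epithelial cells. TGF-beta is known as an inducer of collagen genes in fibroblasts, and a collagen-rich stroma surrounds many mammary tumours.

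Virgin Sprague Dawley rats had developed tumours after N-nitroso-N-methylurea, a carcinogen (NMU, 50 mg/kg in 1 to 3 intraperitoneal injections at 35 to 53 days of age). Rats with palpable tumours were given vehicle, the TGFBR1 inhibitor LY2157299 (galunisertib, which blocks TGF-beta receptor signalling), an anti-PD-L1 antibody, or the antibody and the inhibitor in combination, and a separate cohort carried untreated tumours. All groups had received NMU. Tissue was digested in 2 mg/ml collagenase for 1 to 2 h and sorted, and the labels name the fractions CD45, Ep and DN, whereas the series' design text speaks of populations positive for EpCAM or SMA and of a double negative population.

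Columns of the count table are named by rat and tumour without the fraction, and were therefore classed by CPM (a gene's counts per 1000000 counts of the column) of Ptprc, the gene of the leukocyte surface protein CD45. Below 150 CPM lay 62 non-leukocyte columns of 45 tumours: 15 of 7 vehicle rats, 8 of 4 rats on the TGFBR1 inhibitor, 16 of 7 rats on anti-PD-L1, 13 of 6 rats on the combination and 10 of 8 rats with untreated tumours. At 300 CPM or above lay 44 leukocyte columns: 12 of 8 vehicle rats, 7 of 5 inhibitor rats, 8 of 5 anti-PD-L1 rats, 8 of 6 combination rats and 9 of 7 untreated rats. The highest non-leukocyte column had 124 CPM of Ptprc with 1.01 CPM of Col1a1, the lowest leukocyte column had 486.2 CPM of Ptprc with 21.5 CPM of Col1a1, and 1 untreated column between the limits (165.4 CPM of Ptprc, 643.7 CPM of Col1a1) was placed in neither class. Total counts ran from 2353564 to 26635144 in non-leukocyte and from 6609198 to 29727437 in leukocyte columns. The summed CPM of 6 leukocyte markers was 10.8 to 348 per rat in the former class and 1447 to 3246 in the latter. In the non-leukocyte class the 5 luminal epithelial markers summed to 3256 to 18360 CPM per rat, so epithelial RNA was present in every rat. A deposited sample table gives each tumour 1 of 3 batch numbers without saying what a batch was: untreated tumours were all in batch 1 except for 1 non-leukocyte column, and the vehicle and treated tumours were in batches 2 and 3.

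Collagen counts made up very different parts of the libraries. Together the 28 chains took 0.0213% to 23.05% of the counts of a non-leukocyte column, with a median of 0.151%, and 0.00195% to 0.156% of a leukocyte column, with a median of 0.00945%. The highest value belonged to a non-leukocyte column of the vehicle tumour P6T2, with 115407 CPM of Col1a1 and 99488 CPM of Col3a1 beside 337 CPM of the fibroblast receptor gene Pdgfra, and with 11.9 CPM of Epcam and 10.7 CPM of Krt8. The leukocyte column of the same tumour had the highest Col1a1 value of its class, 775 CPM. The treatment comparisons were also made without this tumour.

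**Figure D1:**
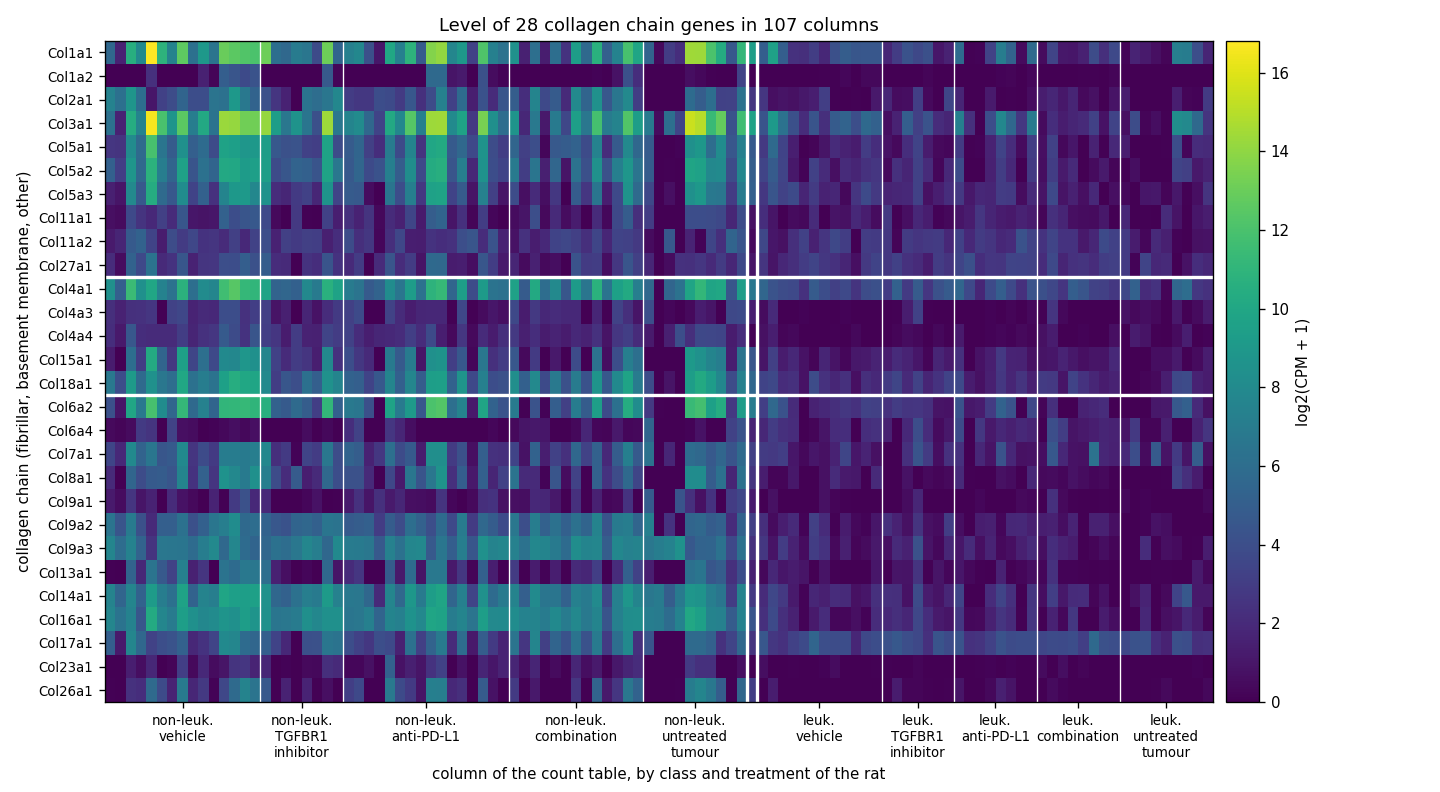
Level of the 28 collagen chains (rows, by chain group) in all columns used (horizontal, by Ptprc class and treatment), coloured by log2(CPM + 1). The non-leukocyte columns vary widely within every treatment, and most chains are near 0 in the leukocyte columns.

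The chains of types I, III and V collagen spread widely over rats. Col1a1, the larger part of type I collagen, ranged over the non-leukocyte counts of vehicle rats from 46.1 to 37191 CPM with a median of 1365. It stood at 49.3, 54.3, 126 and 5736 CPM in the 4 inhibitor rats, at 1.01 to 9421 (median 833) in anti-PD-L1 rats and at 47.6 to 3962 (median 333) in combination rats. Untreated rats covered 3.55 to 21555 CPM, and every pair of groups overlapped. Col3a1, the chain of type III collagen, ran from 56.3 to 35722 CPM in vehicle rats (median 2971), and was 77.1, 102.7, 402 and 12601 in inhibitor rats, 9.50 to 15386 (median 2394) in anti-PD-L1 rats and 86.1 to 4926 (median 372) in combination rats. In the inhibitor group 1 rat, P17, thus carried the high values of both genes. The other 3 rats were in the lower part of the vehicle range, above its minimum. Of these, P19 and P21 are listed outside CD45 as Ep alone, whereas every vehicle rat of this class has a DN sample. P22 is listed with both DN and Ep samples, and was low as well (54.3 CPM of Col1a1 and 77.1 CPM of Col3a1). The chains of type V collagen, which joins type I fibrils and limits their width, spread in a similar way: Col5a1 had 7.70 to 1437 CPM (median 194), Col5a2 28.8 to 1103 (median 295) and Col5a3 2.33 to 763 (median 162) in vehicle rats. Col2a1, the chain of the cartilage collagen type II, was present at 10.1 to 317 CPM (median 76) in vehicle rats, and Col11a2 at 2.74 to 30.5 CPM (median 5.13).

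**Figure D2:**
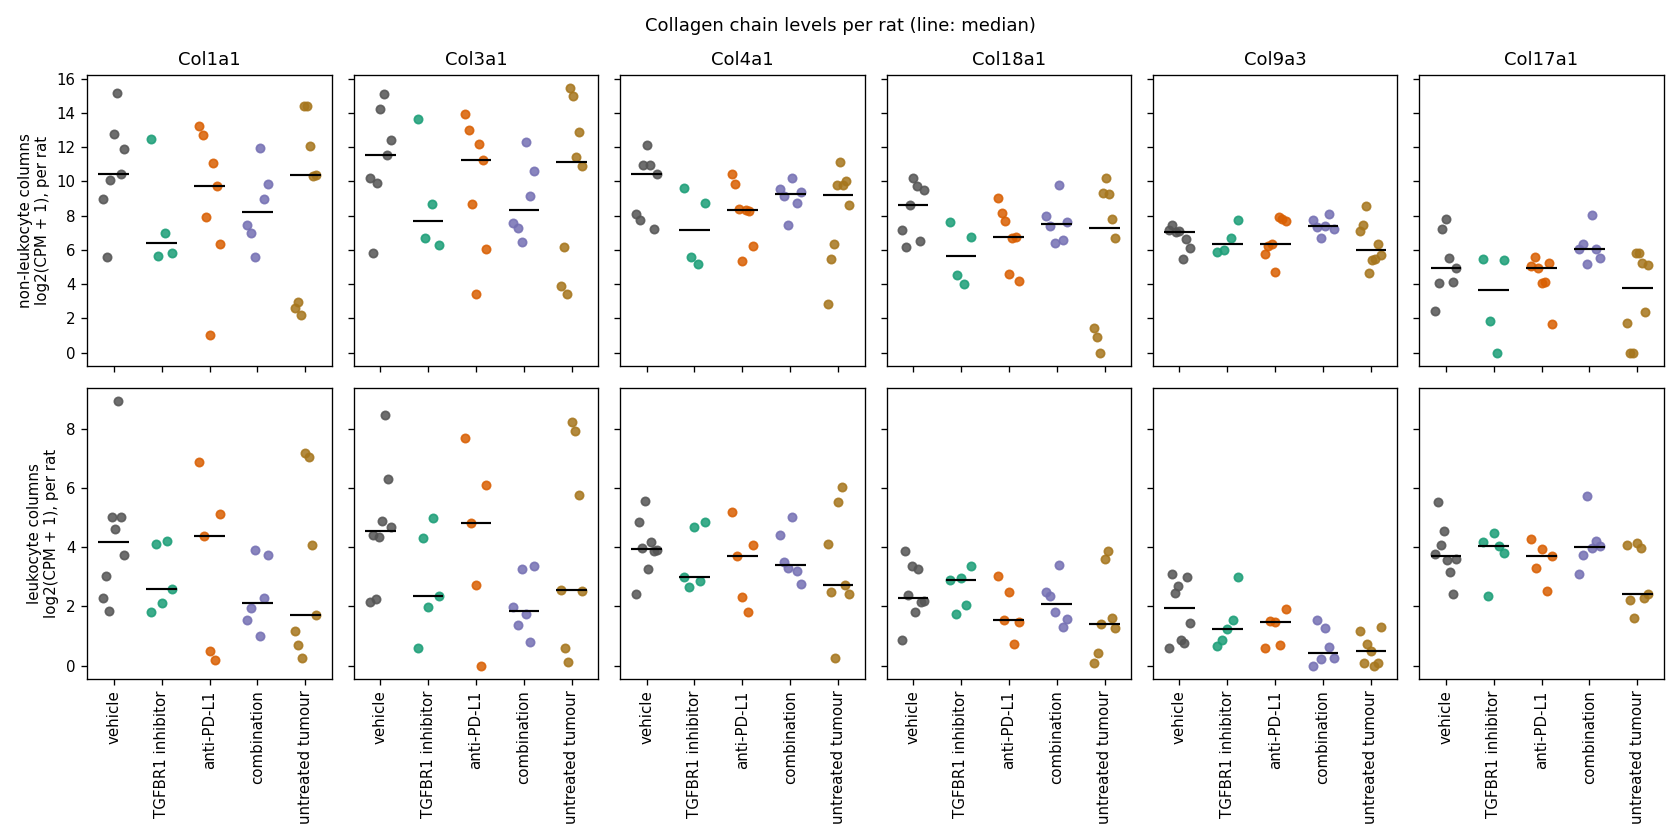
CPM of 6 collagen chains per rat (points) in non-leukocyte and leukocyte columns, by treatment, on a log scale, with a line at the median of the log values. Vehicle and treated rats overlap for every chain shown, and the leukocyte values of Col1a1 lie mostly below its non-leukocyte values.

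Col1a2 encodes the second chain of type I collagen, which is built from 2 Col1a1 chains and 1 Col1a2 chain. Counts of Col1a2 were nonetheless far below those of Col1a1 in every batch, and almost absent from 2 of the 3 batches. In batch 2, 31 of 33 non-leukocyte columns had 0 counts of Col1a2, and the batch held 41 counts of it against 1451303 of Col1a1, which is 0.00283%. Batch 1 had 19 counts against 968979 (0.00196%), and batch 3 had 3692 against 1061756 (0.348%). Among the 16 batch 3 columns with at least 100 CPM of Col1a1 the share was 0.258% to 0.454% (median 0.377%), and none of them was at 0. A count of 0 in a column allows up to 3 counts, and this covers counting error only. Fold changes of Col1a2 between treatments mix these batches, and what separates the batches for this gene was not tested. The 250 bases before its annotated start are shown because this chain is the one whose counts break with its partner. The capitals mark a CCAAT box, here as ATTGG on the printed strand, and a TATAA match (RefSeq, GRCr8, chr4:33518307-33518556, plus strand):
Col1a2: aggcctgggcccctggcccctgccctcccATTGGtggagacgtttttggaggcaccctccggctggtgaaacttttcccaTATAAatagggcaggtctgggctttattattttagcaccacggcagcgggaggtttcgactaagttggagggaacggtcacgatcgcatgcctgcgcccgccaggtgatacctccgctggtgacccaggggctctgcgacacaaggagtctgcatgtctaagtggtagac

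**Figure D3:**
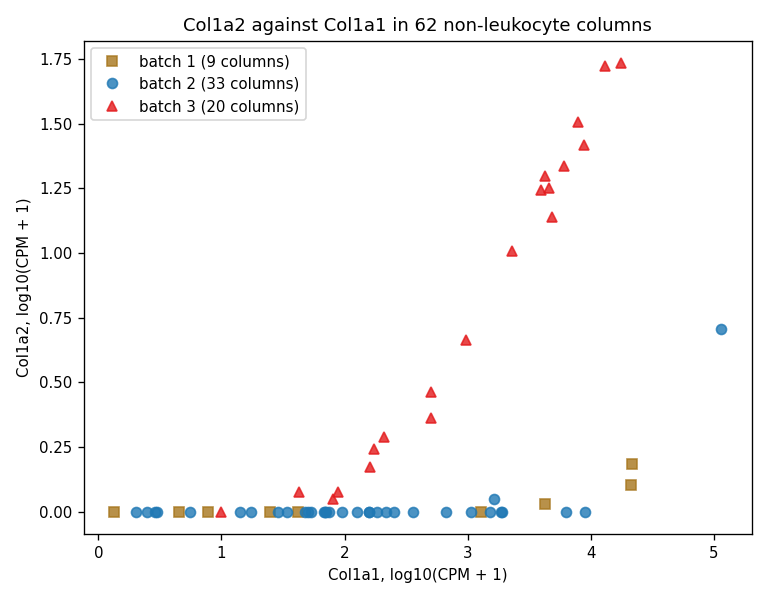
Col1a2 against Col1a1 in the 62 non-leukocyte columns, both as log10(CPM + 1), coloured by batch. Batch 3 columns rise along a line, whereas batch 1 and batch 2 columns stay near 0 for Col1a2 at any level of Col1a1.

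Among the basement membrane chains, Col4a1, a chain of the type IV collagen found in nearly all basement membranes, had 149 to 4521 CPM in vehicle rats (median 1387), and 35.3, 46, 429 and 793 CPM in the 4 inhibitor rats. Anti-PD-L1 rats had 39.5 to 1359 CPM (median 314), combination rats 173 to 1188 (median 607) and untreated rats 6.09 to 2230 (median 641). Both inhibitor rats at the low end (P19 and P21) lay under all 7 vehicle rats, and the other 2 lay inside the vehicle range. Outside CD45 the labels list only an Ep sample for P19 and P21, and a DN sample for every vehicle rat. Fraction and treatment therefore cannot be told apart in these low values. Col18a1, whose end fragment is endostatin, ran from 71.8 to 1148 CPM in vehicle rats (median 386), was 15.2, 21.7, 108.3 and 195 in inhibitor rats, and was 17 to 513 (median 108.04) in anti-PD-L1 and 83.2 to 867 (median 179) in combination rats. Col15a1, the related chain of vessel and muscle basement membranes, had 4.28 to 681 CPM in vehicle rats (median 68.9) and 0.868 to 148 in combination rats (median 12.1).

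Upstream sequence was matched by symbol for 22 of the 28 chains. In the 250 bases before the start, CCAAT or its complement ATTGG stood in 6 of the 22 (27.3%, against 34.02% of 33469 promoters of the same table), the GC box GGGCGG or CCGCCC in 12 (54.5%, against 30.5%), and TATAA or TTATA in 6 (27.3%, against 23.97%). These matches are letters in a window and no measure of binding. Col4a1 is shown as the most abundantly counted basement membrane chain, with its ATTGG and CCGCCC matches in capitals (RefSeq, GRCr8, chr16:84885347-84885596, plus strand):
Col4a1: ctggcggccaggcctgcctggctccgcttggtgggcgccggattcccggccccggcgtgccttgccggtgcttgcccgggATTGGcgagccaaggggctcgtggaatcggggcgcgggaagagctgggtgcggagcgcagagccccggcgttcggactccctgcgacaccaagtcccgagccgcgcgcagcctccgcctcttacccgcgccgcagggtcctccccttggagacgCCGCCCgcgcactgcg
Col4a3 and Col4a4 encode partner chains of the kidney-type basement membrane and lie head to head with 413 bases between their starts. The window before Col4a3 is printed because it is shared: the 88 bases in capitals are also inside the window before Col4a4 on the minus strand (RefSeq, GRCr8, chr9:91323740-91323989, plus strand):
Col4a3: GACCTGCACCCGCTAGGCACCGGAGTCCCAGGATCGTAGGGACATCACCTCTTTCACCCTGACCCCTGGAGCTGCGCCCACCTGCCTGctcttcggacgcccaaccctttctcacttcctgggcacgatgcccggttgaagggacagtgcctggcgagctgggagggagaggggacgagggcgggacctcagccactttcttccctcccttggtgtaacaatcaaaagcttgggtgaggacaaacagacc
Over the 24 vehicle and treated rats with non-leukocyte columns, log2 CPM of Col4a3 and Col4a4 had a Pearson r of 0.275 (permutation p = 0.194) and a Spearman rho of 0.473 (permutation p = 0.0207), and r was 0.552 without the 2 rats farthest from the median of Col4a3. Within batch 2 (18 rats) r was 0.209, and within batch 3 (15 rats) it was 0.655. The r of this neighbouring pair is below those of Col1a1 with Col3a1 and of Col5a1 with Col5a2, given next, and the difference was not tested.

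The chains of types I, III and V collagen moved together from rat to rat. Over the 24 rats, log2 CPM of Col1a1 and Col3a1 had a Pearson r of 0.976 and a Spearman rho of 0.978 (permutation p = 1e-05 for both, the smallest that 100000 resamples can give). The same pair had r = 0.982 without the 2 rats farthest from the median of Col1a1, 0.980 within batch 2 and 0.981 within batch 3. Col5a1 and Col5a2 had r = 0.955 and rho = 0.961 (permutation p = 1e-05 for both), Col1a1 and Col15a1 r = 0.969 and rho = 0.959 (permutation p = 1e-05 for both), and each stayed above 0.94 within both batches. With Serpinh1, the collagen chaperone gene, Col1a1 had r = 0.826 (permutation p = 2e-05) and rho = 0.879 (permutation p = 1e-05). With Col4a1 it had r = 0.772 (permutation p = 3e-05) and rho = 0.756 (permutation p = 4e-05), and r was 0.701 without the 2 farthest rats, 0.682 within batch 2 and 0.692 within batch 3. The pair of Col1a1 and Col1a2 had r = 0.766 over all rats, 0.617 within batch 2 and 0.983 within batch 3. Within batch 2 the 41 counts of Col1a2 lay in tumours P6T2 (39) and P36T2 (2), so r there rests on these. The value over all rats mixes batches that differ in how far Col1a2 was counted. Of the 7 pairs planned, 6 had an adjusted permutation p of r below 0.05, and the exception was Col1a1 with Col17a1 (r = 0.373, permutation p = 0.0734, rho = 0.414, permutation p = 0.0460).

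Across all chains, 22 of 28 pairs (27 chains with Col1a1, and Col4a3 with Col4a4) had an adjusted permutation p of r below 0.05, with a median r of 0.755. All values come from the same libraries, and collagen counts are part of the total, so r describes these rats only. The share of all genes that correlate with Col1a1 over these rats was not computed, so the count is not shown to be particular to collagen chains. Highest after Col3a1 were Col6a2, a microfibril chain (r = 0.975), and Col5a3 (r = 0.974). Lowest was Col9a3, a chain of the fibril-associated collagen type IX, at r = -0.003 and rho = -0.204, followed by Col2a1 (r = 0.258), Col9a1 (0.358), Col9a2 (0.369) and Col17a1 (0.373). Within batch 3, Col9a3 and Col1a1 had r = -0.675 (adjusted permutation p = 0.0108) and rho = -0.779 (adjusted permutation p = 0.00196), and within batch 2 they had r = -0.330 (adjusted permutation p = 0.212).

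Chains were also set beside cell markers in 14 pairs chosen after the data were seen, of which 11 had an adjusted permutation p of r below 0.05. Col1a1 followed the fibroblast genes Pdgfra (r = 0.937, rho = 0.909) and Dcn (r = 0.947, rho = 0.941), with r of at least 0.888 within each batch. With Epcam it had r = -0.447 and rho = -0.397, and r was -0.271 without the 2 farthest rats. Col4a1 followed Col18a1 (r = 0.958, rho = 0.951), and its r with the endothelial gene Pecam1 was 0.773 over all rats, 0.612 within batch 2 and 0.805 within batch 3. Col17a1, a hemidesmosome chain of basal epithelium, had r = 0.598 and rho = 0.775 with the basal keratin gene Krt14, and r was 0.569 and 0.883 within batches 2 and 3. Between Col9a3 and the luminal keratin gene Krt8 r was 0.411 and rho 0.530 over both batches (adjusted permutation p = 0.0529 and 0.0151). Col2a1 had r = 0.511 and rho = 0.765 with Col9a2, its partner in cartilage fibrils, and r was 0.656 and 0.748 within batches 2 and 3.

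**Figure D4:**
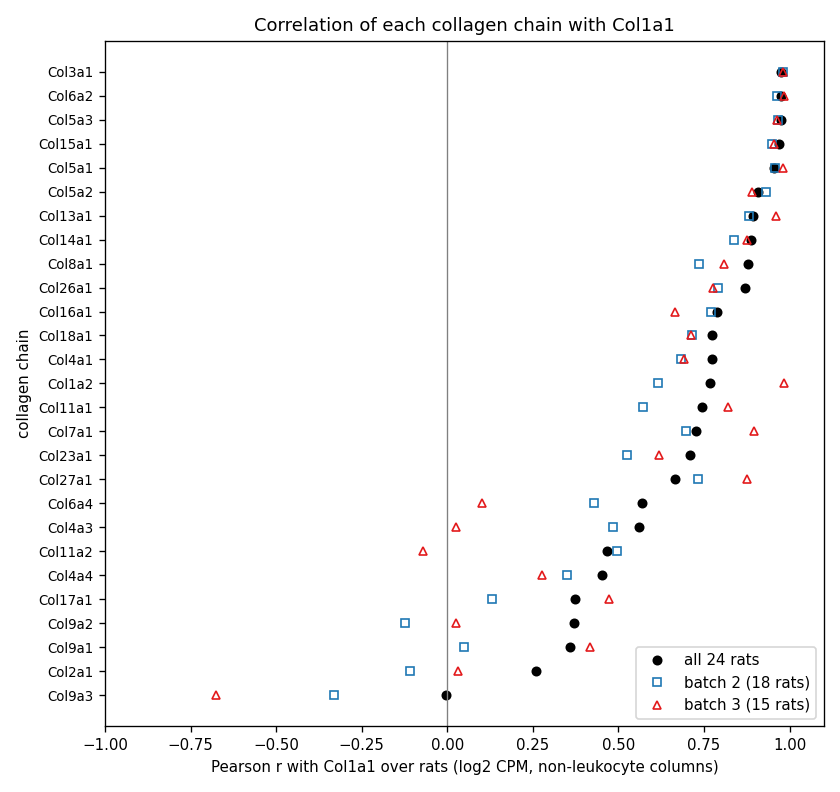
Pearson r of each collagen chain with Col1a1 over rats, from log2 CPM of non-leukocyte columns, for all 24 vehicle and treated rats, for 18 rats of batch 2 and for 15 rats of batch 3. Most chains lie above 0.5, and Col9a3 lies at or below 0 in each set.

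In 17 tumours the table had 2 non-leukocyte columns, and 16 of these tumours are listed in the labels once as DN and once as Ep. The 2 columns of a tumour differed by a median of 28.6-fold in Col1a1 (6.06 to 130, on CPM + 1), 27.1-fold in Col3a1, 20.4-fold in Col5a2, 17.6-fold in Col6a2, 14.1-fold in Col15a1, 10.4-fold in Col4a1 and 8.70-fold in Col18a1. In all 17 the column with more Col1a1 also had more Col3a1, Col5a2, Col5a3, Col6a2, Col4a1, Col15a1, Col18a1, Col13a1 and Col14a1, and more Pdgfra and Acta2. Epcam was lower in that column in 15 of 17, with a median fold of 1.31, and Col11a2 was lower in 12 of 17. The smallest medians were those of Col1a2 (1-fold), Col6a4 (1.21-fold), Col11a2 (1.47-fold), Col9a1 (1.55-fold), Col23a1 (1.74-fold) and Col4a4 (1.94-fold), and Col9a3, Col16a1 and Col9a2 followed with 1.99-fold, 2.01-fold and 2.14-fold. The columns were ordered by Col1a1 itself, so these counts describe the pairs and are no test.

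The other 13 chains differed in how far they spread. Col6a2 moved with Col1a1, with 19.2 to 2865 CPM in vehicle rats (median 659). Col9a3 had 42.9 to 175 CPM in vehicle rats (median 128) and 100.8 to 271 in combination rats (median 164), a much narrower range than that of Col1a1. Col14a1 and Col16a1, which bind to the surface of fibrils, had 120 to 812 CPM (median 181) and 120 to 815 CPM (median 224) in vehicle rats. Col17a1 had 4.45 to 226 CPM in vehicle rats (median 29.2) and 34.4 to 256 in combination rats (median 65). Col7a1, which anchors epithelial basement membranes, had 6.87 to 175 CPM in vehicle rats (median 110).

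In leukocyte columns collagen counts were low, but not for every chain. In the 35 tumours with columns of both classes, the median log2 ratio of leukocyte over non-leukocyte CPM (each CPM + 1) was -5.66 for Col1a1 and -5.78 for Col3a1, and each was lower in 34 of 35 tumours. Col4a1 had -4.87 (34 of 35) and Col18a1 -5.17 (33 of 35). Col14a1 (-5.64), Col9a3 (-5.25) and Col16a1 (-6.52, the lowest median of all chains) were lower in all 35 tumours. Medians over the chains of a group were alike, at -3.33 for fibrillar, -3.71 for basement membrane and -3.27 for other chains. Col17a1 had a median of -1.05 (lower in 26 of 35), with a leukocyte median of 13.8 CPM and ratios from -4.26 to 4.23 over tumours. Col27a1 (-0.41, 21 of 35) and Col11a2 (-0.32, 23 of 35) had medians nearer 0, with leukocyte medians of 4.81 and 4.54 CPM. Their ratios ran from -5.41 to 2.42 and from -4.59 to 2.68. Col6a4, a type VI chain, was the only chain with a ratio above 0: its median log2 ratio was 1.49, it was lower in leukocyte columns in 7 of 35 tumours, and its column medians were 2.02 CPM in leukocyte and 0.231 CPM in non-leukocyte columns. The classes were set from the counts themselves, so no test was made between them. Fewer cells of a type and less RNA per cell cannot be told apart in these bulk libraries.

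For the type I and type III chains, rats high in non-leukocyte columns were also high in leukocyte columns. Over 20 rats with both classes, Pearson r of log2 CPM was 0.837 for Col3a1 (rho = 0.773), 0.800 for Col1a1 (rho = 0.764), 0.735 for Col1a2 (rho = 0.797) and 0.597 for Col5a1 (rho = 0.463), and these were the 4 of 28 chains with an adjusted permutation p of r below 0.05. The share of all genes with such a correlation between the classes was not computed, so the count is not shown to be particular to collagen chains. The value of Col1a2 carries the batch: its leukocyte counts were 0 in every column of batches 1 and 2 and 29 in all in batch 3. Without tumour P6T2, r was 0.770 for Col1a1, 0.823 for Col3a1 and 0.528 for Col5a1 (adjusted permutation p = 0.119). Within batch 2 (13 rats) none of 27 chains passed. Col1a1 had r = 0.70 there, which fell to 0.124 without the 2 rats farthest from the median and so rests on those rats. Within batch 3 (13 rats) 4 chains passed, and r of Col1a1 was 0.867 with all rats and 0.864 without the 2 farthest. The summed CPM of 8 fibroblast markers in the leukocyte columns of vehicle rats was 7.60 to 498, and the part that RNA from fibroblasts had in these leukocyte values was not tested.

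The treatments were compared with vehicle by edgeR's quasi-likelihood test on counts summed per rat, separately in each class, with Benjamini-Hochberg adjustment over all genes. By edgeR no gene passed in any of the 6 comparisons, while 1009, 390 and 814 genes in non-leukocyte columns and 2039, 1407 and 1869 in leukocyte columns had an unadjusted p under 0.05 with the inhibitor, anti-PD-L1 and the combination. DESeq2 called 17, 0 and 4 genes in non-leukocyte and 414, 153 and 335 in leukocyte columns, and limma voom called 0, 0 and 0 and then 0, 4 and 299. Counts of chains at an unadjusted p under 0.05 are given beside the share of all tested genes that did the same. The chains share fibroblast content and libraries, and the 3 treatments share the vehicle rats, so chains are not replicates and the comparisons are not independent.

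With the TGFBR1 inhibitor, non-leukocyte columns had a fold change below 0 on the log2 scale for all 28 chains, and none passed the test. Of the 13732 genes tested 0% passed at an adjusted p of 0.05. The median log2 fold change was -1.47 over the chains and -0.03 over all genes, with -1.44 for fibrillar, -2.05 for basement membrane and -1.50 for other chains. Col18a1 had a log2 fold change of -2.39 (SE 1.02, unadjusted p = 0.0285, adjusted p = 0.589), and Col4a1 -2.05 (SE 1.04, adjusted p = 0.698). Col6a4 (-3.65, SE 1.54, adjusted p = 0.583) rests on 0, 0, 3 and 7 counts in the inhibitor rats, and Col9a1, a chain of type IX collagen, had -3.04 (SE 1.33, adjusted p = 0.604). Col1a1 had -2.13 (SE 1.84) and Col3a1 -1.37 (SE 1.70), with adjusted p of 0.824 and 0.880. An unadjusted p under 0.05 with a lower level was found for 3 of 28 chains, against 5.94% of all genes. That count rests on single rats: it was 15 (against 11.6% of all genes) without inhibitor rat P17. It was 0 without P19 (against 5.26%) or without P21 (against 4.58%). Outside CD45, P19 and P21 are listed with Ep samples alone. The 12 chains that are followed in every comparison (Col1a1, Col1a2, Col3a1, Col5a1, Col5a2, Col4a1, Col15a1, Col18a1, Col6a2, Col14a1, Col7a1 and Col17a1) had log2 fold changes from -2.39 to -1.20.

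The markers of stromal cells lay lower beside the chains in the inhibitor rats. All 8 fibroblast markers had negative log2 fold changes (median -1.74), and their summed CPM was 114 to 6840 (median 328) in inhibitor and 86.4 to 15358 (median 3099) in vehicle rats. All 6 smooth muscle and pericyte markers (median -2.04) and all 5 endothelial markers (median -1.60) were also negative, while the median of the luminal epithelial markers was 0.22, and no marker passed the test. The labels list 11 DN and 4 Ep samples for the vehicle tumours of this class and 4 of each for the inhibitor. They list 8 of each for anti-PD-L1, and 8 DN and 5 Ep samples for the combination. Fraction mix and treatment thus cannot be told apart over all columns in any of these comparisons with vehicle. Restricted to tumours with 2 non-leukocyte columns (4 vehicle and 2 inhibitor rats) the median over chains was -0.24, with 18 of 28 chains negative. Without rat P17 the median over chains was -3.11. Within batch 2 it was -1.86 and within batch 3 it was 0.13, so the direction was not shared by the batches. Batch 3 held 2 inhibitor columns, of P17 and P22, and 6 vehicle columns. The non-leukocyte columns of P19 and P21, the rats listed with Ep alone outside CD45, were in batch 2. Batch and fraction therefore cannot be told apart in this contrast.

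With anti-PD-L1, 26 of the 28 chains had a negative log2 fold change in non-leukocyte columns, with a median of -0.95 against -0.02 over all genes, and again no chain and 0% of genes passed. Basement membrane chains had a median of -1.49, fibrillar chains -0.66 and other chains -0.81. Col9a2, a type IX chain, had 33.8 to 224 CPM in vehicle rats (median 55) and 6.87 to 63.4 in anti-PD-L1 rats (median 33.8), a log2 fold change of -1.37 (SE 0.454, unadjusted p = 0.00609, adjusted p = 1.00). Col2a1 had 10.1 to 317 CPM (median 76) and 11.1 to 64.7 CPM (median 14.5), a log2 fold change of -2.42 (SE 0.933, unadjusted p = 0.0162). For both genes the groups overlapped. Col4a1 had -1.67 (SE 0.831, unadjusted p = 0.0563) and Col18a1 -1.49 (SE 0.794, unadjusted p = 0.0744), and Col1a1 had -1.48 (SE 1.45) and Col3a1 -1.15 (SE 1.39). Lower at an unadjusted p under 0.05 were 2 of 28 chains, against 1.97% of all genes. With batch as a covariate it was 9 of 28, against 3.63%, in a fit where a rat with tumours in both batches enters once for each. Single rats left out gave 0 (vehicle rat P5, against 0.808% of all genes) to 5 (anti-PD-L1 rat P24, against 3.33%). The 12 chains followed throughout had log2 fold changes from -1.67 to 0.47.

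The fibroblast markers had a median log2 fold change of -0.90 here, with 7 of 8 negative, the smooth muscle and pericyte markers -1.72, with 6 of 6, and the endothelial markers -1.80, with 5 of 5. Among the endothelial markers Vwf had -1.82 (SE 0.604, unadjusted p = 0.00602) and Pecam1 -1.80 (SE 0.873, unadjusted p = 0.0514). Their summed CPM was 7.43 to 102.7 (median 21.9) in anti-PD-L1 and 10.3 to 324 (median 146) in vehicle rats, and their part in the values of the basement membrane chains was not tested. Without vehicle rat P6 the median over chains was -0.40, without its tumour P6T2 alone it was -0.61, and then the log2 fold change of Col1a1 was 0.02. Fraction mix differs here too, with 8 DN and 8 Ep samples listed against 11 and 4 for vehicle, and cannot be told apart from treatment. In tumours with 2 non-leukocyte columns (4 rats of each group) the median over chains was 0.02, with 14 of 28 negative, and it was -1.87 within batch 2 and -0.08 within batch 3.

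With the combination, 24 of 28 chains had a negative log2 fold change in non-leukocyte columns (median -0.94, all genes -0.05), and no chain and 0% of genes passed. Fibrillar chains had a median of -1.23, basement membrane chains -1.07 and other chains -0.85. Col3a1 had a log2 fold change of -2.94 (SE 1.57, adjusted p = 0.829) and Col1a1 -2.94 (SE 1.62, adjusted p = 0.831), Col5a1 had -2.56 (SE 1.26, adjusted p = 0.826), and Col4a1 had -1.28 (SE 0.865, adjusted p = 0.866). Col8a1, a chain of vessel and stromal networks, had 2.77 to 293 CPM in vehicle rats (median 36.2) and 6.54 to 52.9 CPM in combination rats (median 16.2), a log2 fold change of -2.18 (SE 1.03, unadjusted p = 0.0463). It was the only chain lower at an unadjusted p under 0.05, against 4.15% of all genes. With batch as a covariate there were 11 of 28, against 6.63%, and without combination rat P33 there were 9, against 6.23%. Leaving out vehicle rat P5 (against 2.52%) or P6 (against 2.69%) gave 0. The 12 chains followed throughout had log2 fold changes from -2.94 to 0.44. Col4a4 had -1.07 (SE 0.573, adjusted p = 0.829). Col9a3 and Col17a1 had positive values of 0.61 (SE 0.463) and 0.44 (SE 0.892), inside the spread between rats.

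Fibroblast markers had a median log2 fold change of -1.98 with the combination (7 of 8 negative), and endothelial markers -2.43 (5 of 5, of which 3 had an unadjusted p under 0.05). Smooth muscle and pericyte markers did not have a lower median sum: it was 262 to 369 CPM (median 333) in combination rats and 50.7 to 1603 CPM (median 274) in vehicle rats. The sum of the 4 measured basal epithelial markers (of 5 listed) was 242 to 2173 CPM in vehicle rats (median 274) and 530 to 3988 in combination rats (median 885), beside the higher median of Col17a1. The median over chains was below 0 in both batches (-1.41 in batch 2 and -0.64 in batch 3) and in tumours with 2 non-leukocyte columns (-0.999, with 22 of 28 chains negative), and whether the combination differs from a single agent was not tested. The labels list 8 DN and 5 Ep combination samples against 11 and 4 for vehicle, so over all columns fraction mix cannot be told apart from treatment.

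**Figure D5:**
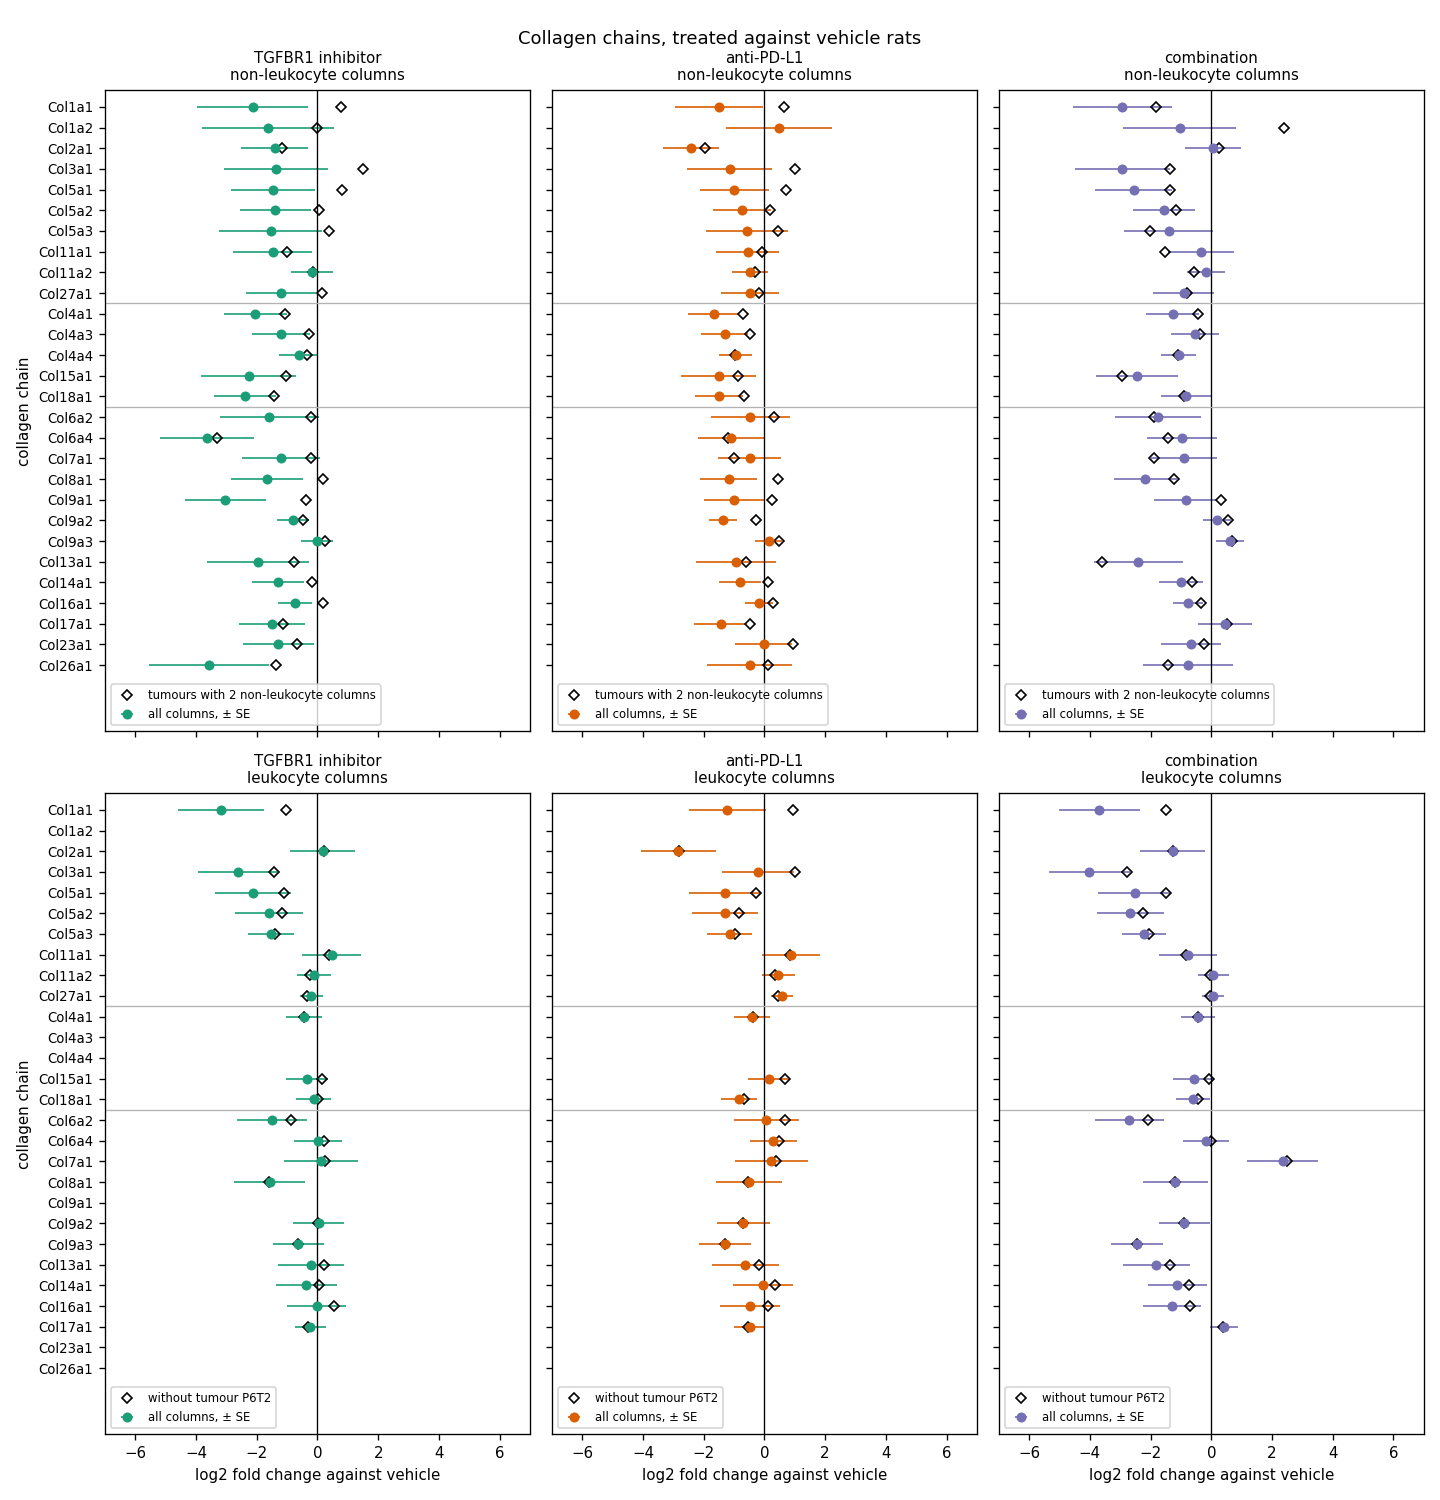
Log2 fold change against vehicle with its SE for each tested chain in 6 comparisons, non-leukocyte columns above and leukocyte columns below. Diamonds give the value in tumours with 2 non-leukocyte columns (upper panels) or without tumour P6T2 (lower panels), and no chain passed the test in any panel.

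In leukocyte columns 22 of the 28 chains had enough counts to be tested, and Col1a2, Col4a3, Col4a4, Col9a1, Col23a1 and Col26a1 were not. With the combination 18 of the 22 had a negative log2 fold change, with a median of -1.15 against 0.01 over all 11932 genes, and no chain and 0% of genes passed. Fibrillar chains had the lowest median, -2.22 over 9 chains. Col3a1 was at 3.40 to 351 CPM in vehicle rats (median 22.4) and at 0.729 to 9.37 CPM in combination rats (median 2.64), a log2 fold change of -4.02 (SE 1.33, unadjusted p = 0.00615, adjusted p = 0.172). Col1a1 was at 2.63 to 488 CPM (median 17.9) and at 1.01 to 13.9 CPM (median 3.32), with -3.69 (SE 1.35, adjusted p = 0.202). Col5a3 was at 2.08 to 17.6 CPM (median 6.16) and at 0 to 3.41 CPM (median 1.26), with -2.22 (SE 0.728, unadjusted p = 0.00545, adjusted p = 0.170). Col9a3 was at 0.50 to 7.49 CPM (median 3.08) and at 0 to 1.89 CPM (median 0.364), with -2.44 (SE 0.855, adjusted p = 0.184). The ranges of the groups overlapped for each of these chains.

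Lower at an unadjusted p under 0.05 in the leukocyte columns of combination rats were 7 of 22 chains (5 fibrillar and 2 other), against 7.89% of all genes. The count was 3 without vehicle rat P6, against 6.20%, and 4 without tumour P6T2, against 7.14%. Besides the 4 chains above they were Col5a1, Col5a2 and Col6a2, with log2 fold changes of -2.53, -2.67 and -2.70. By DESeq2, 3 chains passed at an adjusted p under 0.05, beside 2.81% of all genes: Col3a1 (adjusted p = 0.0197), Col5a3 (0.0282) and Col9a3 (0.0416). Basement membrane chains did not stand out, with a median of -0.59 over 3 chains and -0.45 (SE 0.561) for Col4a1. Col7a1 had a positive value of 2.35 (SE 1.16, adjusted p = 0.328) that rests on rat P33, which had 79.4 CPM against 0.673 to 6.61 in the other 5 combination rats. Without that rat its log2 fold change was -0.71. The 11 of the 12 followed chains that were tested lay between -4.02 and 2.35. All 8 fibroblast markers were also negative (median -2.38, 4 at an unadjusted p under 0.05), and their summed CPM was 4.74 to 29.6 (median 11.2) against 7.60 to 498 (median 54.8) in vehicle rats. The share of fibroblast RNA in these columns and its part in the chain values were not tested. Without tumour P6T2 the median over chains was -0.87, with 20 of 22 negative. With all tumours it was -0.97 within batch 2 and -0.81 within batch 3.

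The single agents gave medians nearer 0 in leukocyte columns. With the inhibitor 17 of 22 chains had a negative log2 fold change (median -0.29, all genes 0.00), the fibrillar chains had a median of -1.53, and no chain and 0% of genes passed. Col1a1 was at 2.47, 3.30, 5.06, 16.1 and 17.5 CPM, all inside the vehicle range or just under it, with a log2 fold change of -3.18 (SE 1.41, unadjusted p = 0.0344, adjusted p = 0.260), Col3a1 had -2.62 (SE 1.32, adjusted p = 0.313), and Col5a3 -1.53 (SE 0.752, adjusted p = 0.298). Col5a1 had -2.12 (SE 1.25) and Col4a1 -0.46 (SE 0.595). Col1a1 was the only chain lower at an unadjusted p under 0.05, against 8.45% of all genes. With batch as a covariate there were 3 of 22, against 9.45%. Rat P6 had 488 CPM of Col1a1, next to 31.3 CPM in the vehicle rat below it. Without its tumour P6T2 the log2 fold change of Col1a1 was -1.03 (adjusted p = 0.669), and 12 of 22 chains were negative. No chain was then lower at an unadjusted p under 0.05, against 8.33% of all genes. Followed chains (11 tested) had log2 fold changes from -3.18 to 0.11. Of the 8 fibroblast markers 7 were negative (median -1.53), among them Fap at -2.68 (SE 0.950, unadjusted p = 0.00940), Lum at -2.70 and Postn at -2.82, and their summed CPM was 15.03 to 67.1 (median 22.9) against 7.60 to 498 (median 54.8) in vehicle rats. Their part in the chain values was not tested.

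With anti-PD-L1, 15 of 22 chains had a negative log2 fold change in leukocyte columns (median -0.48, all genes -0.02), and no chain and 0% of genes passed. Col1a1 was at 0.134, 0.416, 19.9, 33.6 and 116 CPM, with a log2 fold change of -1.23 (SE 1.27, adjusted p = 0.712) that became 0.94 without tumour P6T2. Col3a1 (-0.22, SE 1.18) became 1.01 in the same way. Col2a1 had -2.83 (SE 1.23, unadjusted p = 0.0304, adjusted p = 0.392) and was the only chain lower at an unadjusted p under 0.05, against 6.33% of all genes. Col5a3 had -1.14 (SE 0.736), Col9a3 -1.31 (SE 0.862), Col4a1 -0.40 (SE 0.593), and Col27a1 a positive 0.57 (SE 0.371). The 11 followed chains tested lay between -1.30 and 0.22. All 8 fibroblast markers were negative (median -1.38), with a summed CPM of 5.56 to 127 in anti-PD-L1 rats. The median over chains was -1.32 within batch 2, 0.37 within batch 3 and -0.03 without tumour P6T2, where 11 of 22 chains were negative.

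Genes that fold, process and bind collagen were described from lists, and no gene of them passed in any comparison. Of 17 measured genes for folding and modification of the chains, the log2 fold change in non-leukocyte columns was negative for 17 with the inhibitor (median -0.84), 16 with anti-PD-L1 (median -0.38) and 16 with the combination (median -0.43). In leukocyte columns it was negative for 15 of 16 tested genes with each treatment, with medians of -0.56, -0.67 and -0.53. Serpinh1, the collagen chaperone, had -1.56 with the inhibitor in non-leukocyte columns (unadjusted p = 0.0126) and -1.85 with the combination in leukocyte columns (unadjusted p = 0.00508). Plod1, a lysyl hydroxylase, had -1.30 with the inhibitor in non-leukocyte columns (unadjusted p = 0.00425), P4ha1, a prolyl hydroxylase subunit, had -1.06 with anti-PD-L1 in leukocyte columns (unadjusted p = 0.00161), and P3h3 had -1.42 with the combination there (unadjusted p = 0.00109).

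Of 12 measured genes for processing and crosslinking, 10, 9 and 11 were negative in non-leukocyte columns with the inhibitor, anti-PD-L1 and the combination (medians -1.37, -0.73 and -1.94), and 7 of 10 tested genes were negative with each treatment in leukocyte columns. Among these were Pcolce, an enhancer of procollagen cleavage (-2.78 with the inhibitor in leukocyte columns, unadjusted p = 0.00428), and Loxl2, a crosslinking enzyme (-2.34 with the combination in leukocyte columns, unadjusted p = 0.00443). Of 7 tested collagen receptor genes 6 were negative in non-leukocyte columns with each treatment, among them the fibroblast integrin gene Itga11 (-4.17 with the combination, unadjusted p = 0.0161), whereas Itgb1 had a positive 0.83 with the combination in leukocyte columns (unadjusted p = 0.0140). Of 10 measured partners of the basement membrane 8, 9 and 8 were negative in non-leukocyte columns, with Lamb2, a laminin chain, at -0.82 with the combination (unadjusted p = 0.00089).

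Untreated tumours, nearly all of which carry a batch number of their own, are described only. Collagen chains took 0.0414% to 7.48% of the non-leukocyte counts of the 8 rats (median 0.781%), beside 0.117% to 8.46% in vehicle rats (median 0.696%), 0.0539% to 2.29% in inhibitor rats (median 0.140%), 0.0217% to 3.42% in anti-PD-L1 rats (median 0.523%) and 0.103% to 1.55% in combination rats (median 0.268%). Fibrillar chains made up a median of 71.4% of the collagen counts of a rat in untreated tumours, 63.8% with vehicle, 46.7% with the inhibitor, 67.8% with anti-PD-L1 and 37.6% with the combination, and basement membrane chains 11.03%, 15.5%, 9.80%, 9.25% and 22.4%. Batch and cohort cannot be told apart for the untreated rats.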

How the data were processed

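RNA of sorted rat tumour fractions (under 10 ng) was amplified with the SMARTer v4 kit and sequenced, per the labels' protocols. The deposited table holds raw counts per gene symbol. STAR, FastQC and build rn6 are named without versions in the submitters' processing notes, while the counting tool, the annotation and the use of strand are not stated there. Overlapping genes can therefore share reads. The kit is not said to add molecular identifiers, so counts are not independent molecules and limits from counts of 0 cover counting error only.

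Of 108 count columns, 107 were used and 1 without a tumour name was not. By name, 13 columns match a single sample and 94 a treatment group only. No 2 columns were identical. The replicate is the rat: counts of its columns were summed within a Ptprc class. Levels are CPM by total counts, not per gene length. Where counts or shares of different chains are set side by side, they also depend on transcript length. No test of level was made between genes. Fold changes come from edgeR 4.0.16 in R 4.3.3 (quasi-likelihood test, robust dispersions, TMM, filterByExpr, Benjamini-Hochberg adjustment over all genes at 0.05), with the 4 treatment groups in 1 fit. The SE was taken as the size of the log2 fold change divided by the root of F, and the test was checked on simulated data. Correlations within non-leukocyte columns over all vehicle and treated rats used TMM-scaled log2 CPM with a prior count of 2. Those within a batch, without tumour P6T2 or between the classes used log2(CPM + 1) by column totals. Values of r over all rats and within a batch therefore also differ in scaling. By column totals the 7 planned pairs had r of 0.423 to 0.981 over all rats, against 0.373 to 0.976 by TMM. All correlations used 100000 permutations (Python 3.11.15, scipy 1.17.1), two-sided. Ratios of columns used a pseudocount of 1 CPM.

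The chains, gene lists and tests were chosen with earlier results of these data known. In each comparison the 4 tested chains with the smallest p are named, and 12 fixed chains are followed by the range of their fold changes (11 were tested in leukocyte columns, where Col1a2 had too few counts). Other chains were named after their values were seen. Alternatives were RLE scaling, no filter, DESeq2 1.42.0, limma 3.58.1 voom with the rat as a random effect, 1 column per rat, only the groups compared, batch as covariate and leaving out each rat. Leaving out tumour P6T2, each batch alone and tumours with 2 non-leukocyte columns were added after seeing the data. Promoter windows are from RefSeq (GRCr8).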

Additional observations from a re-analysis of the deposited data

Results flagged for a closer look

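Of 119 groups of 4 to 10 rats checked for a rat whose CPM of a chain lay far from the rest, 8 held one, and chance alone flags about 1 in 20. Col1a1 in leukocyte columns of vehicle rats was 488 CPM in rat P6, next to 31.3 CPM in the rat below it. Among rats on the TGFBR1 inhibitor, P17 stood apart in non-leukocyte columns with 485 CPM of Col5a1 (next 18.6) and 7.18 CPM of Col1a2 (next 0.0721), and in leukocyte columns with 0.163 CPM of Col1a2 (the others at 0). Col1a2 was also apart at 16.5 CPM in combination rat P33 (next 1.43) and at 5.36 CPM in untreated rat C9 (next 0.526), both in non-leukocyte columns. The non-leukocyte Col1a2 counts of P17, P33 and C9 all lay in batch 3 columns (P17T3, P33T1 and C9T2), and this gene was almost absent from batches 1 and 2. The part of batch in these Col1a2 flags was not tested. Low values were found in anti-PD-L1 rats: P28 had 3.03 CPM of Col14a1 (next 81.6) and P38 had 2.17 CPM of Col17a1 (next 15.8), both in non-leukocyte columns. Outside CD45, P28 is listed with an Ep sample alone, whereas every other anti-PD-L1 rat has a DN sample.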

How the results depend on the processing

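No paired analysis was possible because each rat received 1 treatment. Taking columns with 150 to 300 CPM of Ptprc into the non-leukocyte class would add no vehicle or treated column, so that alternative gives no other value.

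Over all genes, 0 passed in each comparison by edgeR, while DESeq2 called 414, 153 and 335 in leukocyte columns (inhibitor, anti-PD-L1, combination) and 17 and 4 in non-leukocyte columns (inhibitor, combination). Limma voom called 4 with anti-PD-L1 and 299 with the combination, 1 column per rat gave 49 with the inhibitor, and batch as a covariate gave 176 with anti-PD-L1, all in leukocyte columns. Leaving out single rats gave 0 to 297 with the inhibitor and 0 to 42 with the combination there, with vehicle rat P7 left out for both upper values and 3 without combination rat P33. Collagen chains were called only by DESeq2 with the combination in leukocyte columns, where 3 passed.

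Of the log2 fold changes of the single chains followed here, 24 changed sign under an alternative and 817 kept direction and side of the threshold. These chains were those with the smallest p in each comparison, beside Col1a1, Col3a1 and Col4a1, and Col7a1 with the combination in leukocyte columns. They were partly chosen by p in these same data, and many alternatives leave out a single rat. The counts are therefore no measure of stability over all chains. With batch 3 alone the signs turned for Col1a1 (0.85) and Col3a1 (0.83) with the inhibitor and for Col1a1 (0.76) and Col3a1 (0.17) with anti-PD-L1 in non-leukocyte columns, and for Col4a1 (0.30) with the inhibitor and Col1a1 (2.08), Col3a1 (2.06) and Col4a1 (0.29) with anti-PD-L1 in leukocyte columns. Tumours with 2 non-leukocyte columns gave 0.79 and 1.48 for Col1a1 and Col3a1 with the inhibitor and 0.65 and 1.00 with anti-PD-L1. For Col1a1 with anti-PD-L1, 1 column per rat gave 0.060 and leaving out tumour P6T2 0.020 in non-leukocyte columns, and in leukocyte columns DESeq2 gave 1.02 and leaving out P6T2 0.94 (1.01 for Col3a1). Leaving out single rats gave -2.28 to 0.22 for Col1a1 in non-leukocyte columns with anti-PD-L1, and -2.69 to 1.00 for Col1a1 and -1.63 to 1.17 for Col3a1 in leukocyte columns, the upper values without vehicle rat P6 (Col3a1 also 0.07 and 0.11 without anti-PD-L1 rats P27 and P28). Col7a1 with the combination in leukocyte columns had -0.81 in batch 2 alone and -0.71 to 2.65 with single rats left out. The cause of these differences was not tested. The medians over chains kept their sign without any single rat, from -3.11 (without P17) to -1.06 (P5) with the inhibitor, -1.45 (P24) to -0.40 (P6) with anti-PD-L1 and -1.49 (P33) to -0.68 (P5) with the combination in non-leukocyte columns, and from -0.78 (P22) to -0.18 (P17), -1.20 (P24) to -0.06 (P6) and -1.42 (P34) to -0.97 (P4) in leukocyte columns. Counts near 0 in leukocyte columns limit what can be seen there.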
